A study of Mus musculus with 21 samples.

Results

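Heat shock chaperones are proteins that bind unfolded or partly folded proteins and release them to fold again. The 9 genes described here are the major ones of the cytosol and of the mitochondrial matrix, taken by symbol from a table of 30733 genes: Hspa1a, Hspa1b, Hspa8, Hsp90aa1, Hsp90ab1, Hsph1, Dnajb1, Hspd1 and Hspe1. They were chosen with earlier results of these data known, and all 9 had a row.

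RNA was measured in 21 libraries of sorted mouse bone marrow cells, labelled either Stag2 knockout (KO) or wild type (WT). Stag2 encodes a subunit of cohesin, the ring that holds chromatin loops and sister chromatids. LSK are stem and multipotent progenitor cells (3 KO, 4 WT libraries), GMP are granulocyte and monocyte progenitors (4 KO, 3 WT) and CFU-E are erythroid progenitors (4 KO, 3 WT). All groups share depletion of lineage-positive marrow on magnetic beads before the sort and extraction with TRIzol. The sources used here do not give the knockout allele, any Cre driver, the strain or the age. The labels number the replicates without stating separate animals; the spread behind each p-value may then be technical.

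In the cytosol, HSP70 proteins bind short exposed stretches of a client, J-domain proteins such as Dnajb1 bring the client and start the ATPase cycle, and HSP110 proteins such as Hsph1 exchange the nucleotide so that the client leaves. HSP90 proteins take clients at a later stage, among them many kinases and steroid receptors. Hspa1a, Hspa1b, Dnajb1, Hsph1 and Hsp90aa1 are known as targets that the heat shock factor HSF1 induces under stress, while Hspa8 and Hsp90ab1 are expressed in most cells without it, and Hspd1 with Hspe1 form the chaperonin barrel and lid of the mitochondrion.

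HSF1 binds inverted repeats of a short unit, the heat shock element, and the promoters of 6 of the 9 genes could be read from RefSeq's promoter table of build GRCm38.p6 (windows of 300 bases, 250 of them before the start). No entry was found for Hspa8, Hsp90aa1 and Hsp90ab1. Both strands were searched for a pair of units (GAANNTTC or TTCNNGAA) and for 3 units in a row (GAANNTTCNNGAA or TTCNNGAANNTTC), which also counts as pairs. Of all 32851 windows in the table, 15.1% held a pair and 0.603% held 3 units. The following stretches lie before the start of their gene, 5′ to 3′ on the gene's strand, and are shown because they carry the matches (in capitals) and because the Hspa1a and Hspa1b promoters can be compared with each other. They stand for chr17:34972157-34972406 (minus strand), chr17:34959239-34959488 (minus), chr1:55088038-55088097 (plus) and chr5:149636337-149636396 (minus) in that order.
Hspa1a: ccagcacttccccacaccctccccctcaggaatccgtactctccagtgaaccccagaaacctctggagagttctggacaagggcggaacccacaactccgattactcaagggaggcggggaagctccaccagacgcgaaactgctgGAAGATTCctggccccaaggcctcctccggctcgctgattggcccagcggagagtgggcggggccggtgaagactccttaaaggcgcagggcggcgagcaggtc
Hspa1b: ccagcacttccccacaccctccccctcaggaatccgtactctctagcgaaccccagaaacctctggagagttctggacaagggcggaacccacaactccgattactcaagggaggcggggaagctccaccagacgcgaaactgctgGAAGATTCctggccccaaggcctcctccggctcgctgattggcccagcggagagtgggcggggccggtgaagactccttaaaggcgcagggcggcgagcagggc
Hspe1: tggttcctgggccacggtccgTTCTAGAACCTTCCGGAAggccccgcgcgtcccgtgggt
Hsph1: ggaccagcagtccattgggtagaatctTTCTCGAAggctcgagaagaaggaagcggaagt

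The Hspa1a and Hspa1b promoters differed at only 3 of the 250 bases before the start, C44T, T47C and T249G (Hspa1a base first, positions counted from 1 at the 5′ end of the printed sequence), and were 98.7% identical over the full window. Each held 1 pair of units, beginning 104 bases before the start. Hspe1 and Hspd1 are divergent neighbours on chromosome 1: the Hspe1 window and 1 of the 2 Hspd1 windows overlapped over 285 bases on opposite strands, and the run of capitals above, 18 bases with 2 overlapping matches of 3 units, was therefore in both. The Hsph1 window held a pair 33 bases before the start and a run of 3 units after it. Neither Dnajb1 window held a match to these letters. A match describes the sequence and was not tested as a binding site.

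Closely similar copies limit what the counts can tell apart. Of all 50-base words in the Hspa1a transcript (GENCODE M21), 66.3% also occurred in another gene, mainly Hspa1b, but none in its last 300 bases did, and the same held for Hspa1b (62.3%, none in the last 300 bases). For Hspa8 the share was 74.8%, and 82.5% in the last 300 bases, mainly with Gm15459. For Hspe1 it was 44.8%, and 43.8% in the last 300 bases. Hspd1 shared 44.8% and Hsp90aa1 58.5% of their words, with none in the last 300 bases, and Hsp90ab1, Dnajb1 and Hsph1 shared 4.49%, 0.441% and none. LSK libraries cover full transcripts and GMP and CFU-E libraries cover 3′ ends, so levels in LSK are uncertain between Hspa1a and Hspa1b and for Hsp90aa1 and Hspd1, and Hspa8 and Hspe1 are uncertain in every population.

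Total counts ran from 22813333 to 32196233 in LSK, from 3654667 to 5550165 in CFU-E, from 3732769 to 4401993 in GMP WT and from 1250683 to 3471881 in GMP KO. Each population carried a marker of its label. Cd34 in LSK was at 850 to 1322 CPM, which is read counts scaled to a common library total. Mpo was at 9551 to 24109 CPM in GMP, but also at 3720 to 12257 CPM in LSK, which overlaps. Klf1 was at 587 to 744 CPM in CFU-E. The targeted gene was lower in every KO library of LSK (Stag2, 62.1 to 83.6 CPM against 141 to 188 in WT) and CFU-E (39.8 to 78.0 against 123 to 158), while in GMP it overlapped (84.7 to 154 against 89.3 to 194). GMP KO stands throughout for the libraries labelled KO, whose genotype the Stag2 count does not show; where the deletion lies relative to the 3′ reads is not stated in the labels. The summed level of 7 neutrophil markers, none of them at 0, did not overlap in GMP. It ran from 76130 to 124800 CPM in GMP KO and from 149100 to 192600 in GMP WT. The 6 GMP markers summed to less, 17580 to 46230 CPM in GMP KO and 29700 to 47590 in GMP WT.

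Levels can be compared between genes only per length, and only in LSK, where reads cover the transcript. In LSK WT, Hspa8 (mean 601 CPM per kb, range 471 to 739 over 4 libraries) and Hsp90ab1 (579, range 469 to 716) were the highest and did not differ beyond their spread. Dnajb1 followed (307, range 266 to 332) and overlapped Hspa1b (186, range 153 to 267) at the edge. Hspa1b, Hsp90aa1 (182), Hspe1 (162) and Hspd1 (162) overlapped each other, Hspa1a lay below them (95.4, range 73.6 to 118), and Hsph1 was the lowest (range 18.7 to 45.6). The genes differ in how much of their sequence is shared with other genes, as given above, so this order is uncertain for Hspa1a, Hspa1b, Hspa8, Hsp90aa1, Hspd1 and Hspe1.

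**Figure D1:**
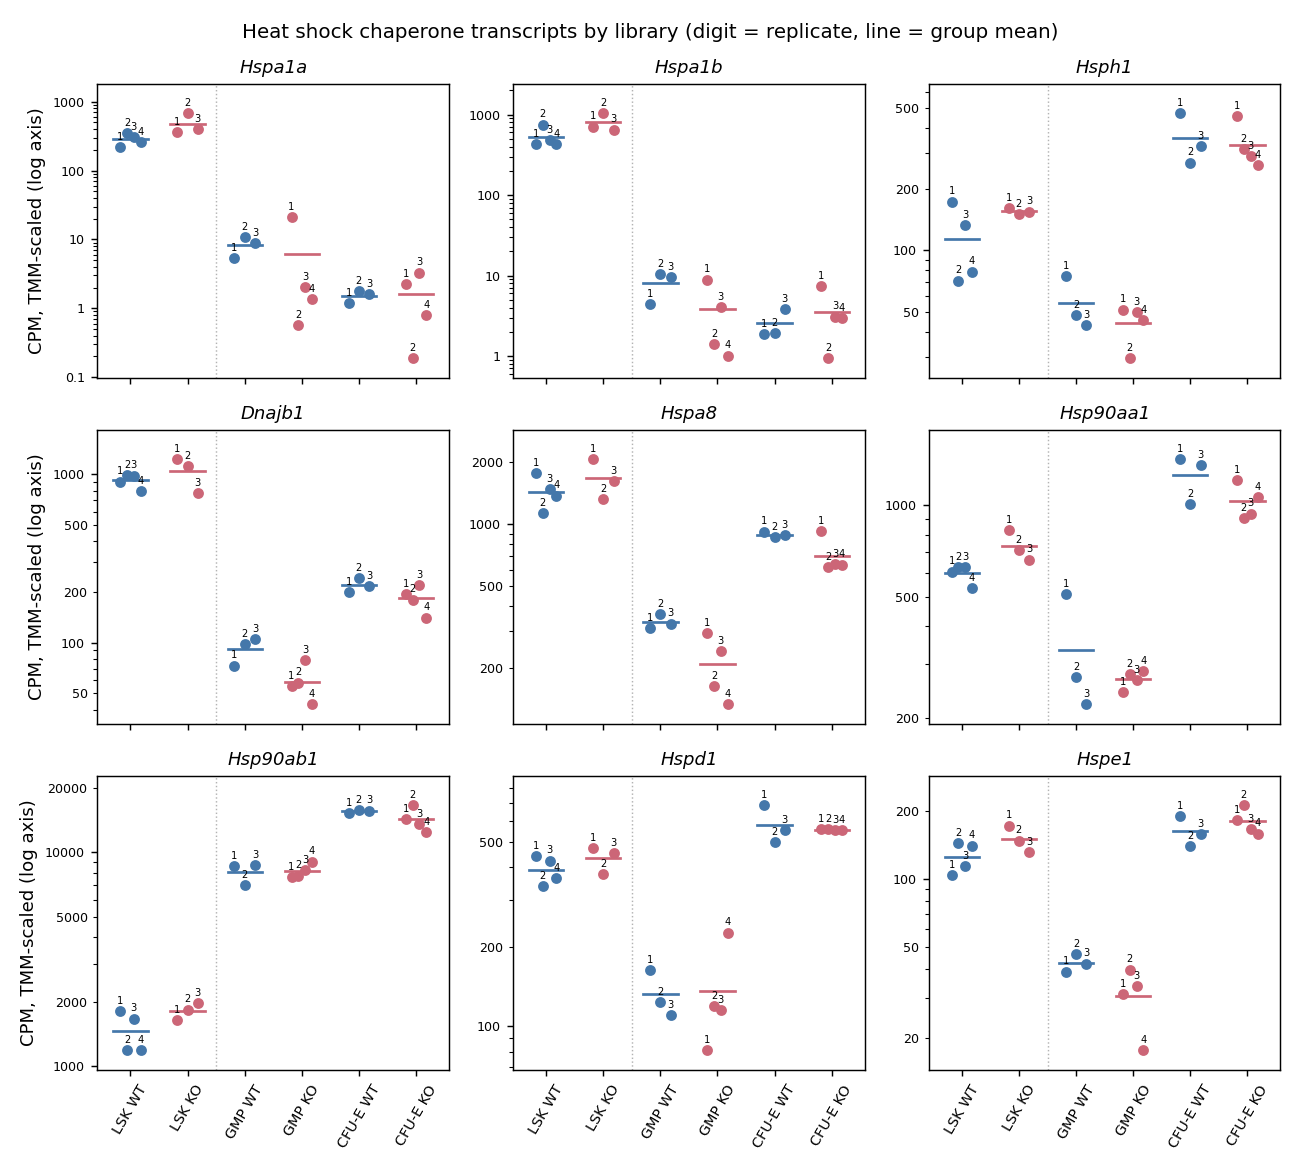
Level of each of the 9 chaperone transcripts in every library, in CPM scaled by TMM within its population, on a log axis. Points are libraries (blue WT, red KO, with the replicate number), lines are group means, and LSK stands left of the dotted line because its libraries were made with another kit. GMP KO 1 is the highest of all GMP libraries for Hspa1a at 20.8 CPM, and CFU-E stands above GMP for Hsph1, Hspd1 and Hspe1.

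In LSK, all 9 chaperones had a higher fitted level in KO than in WT, with the largest difference in the stress-induced HSP70 pair, but none passed the test. Of the 17664 genes tested, 8944 had a positive change. The median change over the 9 genes was 0.30 on the log2 scale, against 0.00 over all genes tested. With edgeR's quasi-likelihood test 0 of 9 were called at an adjusted p under 0.05 (background 0.0793% of genes called), 0 of 9 with DESeq2, and 2 of 9, Hspa1a and Hspa1b, had an unadjusted p under 0.05 (background 7.88%). In bulk libraries of sorted cells, fewer cells of a type and less RNA per cell cannot be told apart.

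Hspa1a and Hspa1b encode near-identical cytosolic HSP70 proteins. Hspa1a was at 218.3, 349.9, 306.8 and 257.3 CPM in LSK WT 1 to 4 and at 357.3, 683.3 and 401.5 CPM in KO 1 to 3. Every KO library lay above every WT library, KO 1 only just above WT 2, and KO 2 stood far above the rest. The log2 fold change was 0.76 ± 0.25 (SE, edgeR adjusted p = 0.448). Hspa1b was at 428.6, 747.5, 477.9 and 428.7 CPM in WT and at 709.7, 1043 and 651.7 CPM in KO. Here WT 2 was above KO 1 and KO 3, so the groups overlapped, and the log2 fold change was 0.62 ± 0.25 (SE, edgeR adjusted p = 0.568). With the counts of both genes added, the pair was at 646.8 to 1097 CPM in WT and 1053 to 1726 CPM in KO, a log2 fold change of 0.67 ± 0.24 (SE, edgeR adjusted p = 0.521).

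Hsp90aa1, the stress-induced HSP90, was at 604.1, 625.2, 625.8 and 533.5 CPM in LSK WT and at 825.9, 710.6 and 661.5 CPM in KO. It was the only chaperone besides Hspa1a whose libraries did not overlap, all KO being higher (background 3.26% of genes tested; 4.63% had all KO lower, which held for none of the 9), with a log2 fold change of 0.30 ± 0.13 (SE, edgeR adjusted p = 0.655). Its constitutive counterpart Hsp90ab1 differed by 0.31 ± 0.19 (SE) with overlapping libraries.

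Hsph1, the HSP110 exchange factor, was at 173.5, 71.22, 132.8 and 78.78 CPM in LSK WT and at 161.6, 151.2 and 155.0 CPM in KO. The KO libraries lay close together inside the spread of WT, of which WT 2 and WT 4 were low, and the log2 fold change was 0.45 ± 0.29 (SE). Without LSK WT 2 and WT 4 it was 0.04, that of Hsp90ab1 0.07, that of Hspa8 0.06 and that of Hspd1 0.02, while Hspa1a was 0.88 and Hspa1b 0.84. The same WT 2 and WT 4 held the highest summed level of the 7 neutrophil markers (8923 and 4723 CPM, against 353.2 to 1704 in the other LSK libraries). The other changes in LSK were 0.26 ± 0.16 for Hspe1, 0.22 ± 0.21 for Hspa8, 0.18 ± 0.18 for Dnajb1 and 0.15 ± 0.15 for Hspd1 (log2, SE). Single libraries moved these values by over 1.5 times. Without LSK KO 2, Hspa1a was 0.44 and Hspa1b 0.40. Without LSK KO 1, Hspa8 was 0.039, Dnajb1 0.041, Hspd1 0.085 and Hspe1 0.16. Hsph1 ran from 0.27 without WT 2 to 0.72 without WT 1. Markers of T and NK cells also separated the groups: the summed level of 6 genes was 409.3 to 687.3 CPM in LSK WT and 329.0 to 399.7 CPM in KO. The part of these markers in the differences was not tested.

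In GMP, 7 of the 9 chaperones had a lower fitted level in KO, and again none passed the test. The median change was -0.47 on the log2 scale, against 0.02 over all genes tested, of which 4867 of 9969 had a negative change. With edgeR 0 of 9 were called (background 1.45%), 0 of 9 with DESeq2, and 3 of 9, Hspa1b, Hspa8 and Dnajb1, had an unadjusted p under 0.05 (background 17.9%). Depth and the neutrophil markers also differed between GMP KO and WT without overlap, as given above. So did 8 stem and multipotent progenitor markers, summed to 229.9 to 240.6 CPM in WT and 271.9 to 577.6 in KO. KO 4 stood at the end of this range and had the lowest summed level of 6 GMP markers (17580 CPM, against 29700 to 47590 in the other GMP libraries). The part of the markers in these differences was not tested. With every GMP library thinned once to the total of the shallowest, the change was -0.67 for Hspa8, -0.64 for Dnajb1, -0.55 for Hspe1, -0.56 for Hspa1a and -0.19 for Hsph1, and Hspa1b had too few reads to be tested.

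Hspa8, the constitutive HSP70 that also uncoats clathrin vesicles, was at 311.7, 365.5 and 327.2 CPM in GMP WT 1 to 3 and at 294.3, 162.8, 239.7 and 132.3 CPM in KO 1 to 4. All KO libraries were lower than all WT libraries, which held for no other chaperone here (background 8.46%; 7.37% had all KO higher, which held for none of the 9), and KO 1 came close to WT 1. The log2 fold change was -0.70 ± 0.26 (SE, edgeR adjusted p = 0.193). Dnajb1, the J-domain partner of the stress-induced HSP70 proteins, was at 73.06, 98.27 and 104.9 CPM in WT and at 55.00, 57.93, 79.12 and 42.96 CPM in KO. Only KO 3 reached above the lowest WT library, and the log2 fold change was -0.64 ± 0.24 (SE, edgeR adjusted p = 0.196).

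The stress-induced pair was rare in GMP, and a few reads set its values. Hspa1b was at 4.449, 10.34 and 9.537 CPM in WT (19, 36 and 36 reads) and at 8.918, 1.406, 4.072 and 1.015 CPM in KO (12, 5, 14 and 3 reads), a log2 fold change of -1.28 ± 0.56 (SE, edgeR adjusted p = 0.248). Hspa1a was at 5.386, 10.92 and 8.742 CPM in WT and at 20.81, 0.5624, 2.036 and 1.353 CPM in KO (28, 2, 7 and 4 reads). For Hspa1a KO 1 stood far above the other KO libraries and above every WT library. For Hspa1b KO 1 was the highest KO library, followed by KO 3, and lay within the range of WT. The log2 fold change of Hspa1a was -0.82 ± 0.77 (SE, edgeR adjusted p = 0.580) with KO 1 and -2.62 without it (edgeR adjusted p = 0.0316), which passes the threshold. GMP KO 1 had the lowest total count of all libraries, 1250683, and Jun, an immediate early gene, was at 52.02 CPM there against 11.64 to 15.47 CPM in the other KO libraries; their part in the result was not tested.

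Among the remaining GMP values, Hspe1 differed by -0.47 ± 0.26, Hsph1 by -0.34 ± 0.26 and Hsp90aa1 by -0.32 ± 0.26 (log2, SE). Hsp90aa1 rested on GMP WT 1, at 510.7 CPM against 221.2 and 271.5 CPM in the other WT libraries and 243.0 to 284.5 CPM in KO; without WT 1 its change was 0.12. Hsph1 was -0.062 without WT 1, and Hspe1 was -0.26 without KO 4. Hsp90ab1 (0.01 ± 0.22) and Hspd1 (0.04 ± 0.30) were near 0 (log2, SE). Hspd1 and Hspe1, which make the barrel and the lid of 1 machine, went apart in GMP KO 4: Hspd1 was the highest of the GMP libraries there at 226.3 CPM and Hspe1 the lowest at 17.59 CPM. The ratio of Hspd1 to Hspe1 counts was 12.9 in that library and 2.36 to 4.23 in the other 20.

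In CFU-E the chaperones had fitted changes of both signs. Of the 9 genes, Hspa1a had too few reads to be tested (1 to 16 per library, 0.1868 to 3.300 CPM), and of the other 8, 3 had a higher and 5 a lower fitted level in KO. The median change over these 8 was -0.08 on the log2 scale, against 0.00 over all genes tested. With edgeR 0 of 8 were called (background 1.06%), 0 with DESeq2 and 0 at an unadjusted p under 0.05 (background 9.82%). None of the 8 had KO libraries all higher (background 6.1%) or all lower (background 5.66%). Markers of other cells did separate the groups: summed megakaryocyte markers (5 genes) were at 103.2 to 233.7 CPM in WT and 371.3 to 839.6 in KO, erythroid markers (9 genes) at 6074 to 7169 against 7422 to 8126, and B cell markers (7 genes) at 8.252 to 14.98 against 3.517 to 4.925. Their part in the CFU-E results was not tested.

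Hspa8 was at 918.6, 867.0 and 882.7 CPM in CFU-E WT 1 to 3 and at 925.6, 615.5, 635.9 and 635.1 CPM in KO 1 to 4. KO 2 to 4 lay close together below WT, and KO 1 lay above all WT libraries. KO 1 is the only KO library on flow cell A, with WT 1 and WT 2, while KO 2 to 4 and WT 3 are on flow cell B. The log2 fold change with a flow cell term was -0.24 ± 0.15 (SE, edgeR adjusted p = 0.665), and it was 0.04 on flow cell A alone and -0.49 on flow cell B alone. Hsp90aa1 had -0.26 ± 0.17 (SE) with both flow cells, -0.01 on flow cell A and -0.49 on flow cell B. Hspa1b had 0.65 ± 0.59 (SE) with both flow cells, 1.91 on flow cell A and -0.73 on flow cell B, from 5 to 36 reads per library. A single KO or a single WT library stands on each side of these within-flow-cell values, which assume that it varies like the others.

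The mitochondrial pair was even in CFU-E. Hspd1 was at 689.1, 497.7 and 552.4 CPM in WT and at 559.4, 558.3, 555.3 and 552.6 CPM in KO. The KO libraries lay within a few CPM of each other inside the range of WT, and the log2 fold change was -0.04 ± 0.15 (SE). Hspe1 differed by 0.16 ± 0.17, Hsph1 by 0.05 ± 0.19, Hsp90ab1 by -0.13 ± 0.17 and Dnajb1 by -0.23 ± 0.17 (log2, SE), all with overlapping libraries.

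**Figure D2:**
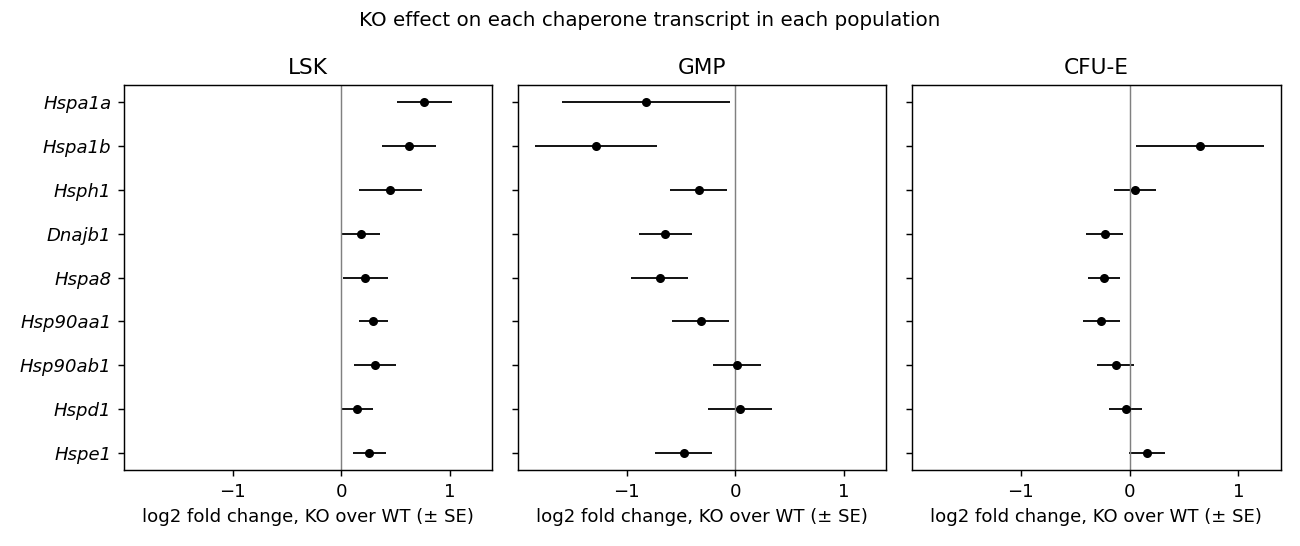
Fitted log2 fold change of KO over WT (x axis, bars are ± 1 SE) for each chaperone in LSK, GMP and CFU-E; Hspa1a was not tested in CFU-E. All 9 points lie right of 0 in LSK, 7 of 9 lie left of it in GMP, and CFU-E points lie on both sides; none passed the test.

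Whether the KO effect differed between populations was tested as an interaction. Between LSK and GMP the effect was more positive in LSK for all 9 chaperones, with a median difference of 0.87 on the log2 scale, against 0.00 over the 16288 genes tested. None was called by edgeR (background 0%, 0 of 16288 genes) or DESeq2, and 6 of 9 had an unadjusted p under 0.05 (background 10.6%): Hspa1b (difference 2.02 ± 0.61), Hspa1a (1.79 ± 0.84), Hspa8 (0.999 ± 0.350), Dnajb1 (0.89 ± 0.33), Hsph1 (0.87 ± 0.39) and Hspe1 (0.79 ± 0.33; log2, SE). The smallest adjusted p among them was 0.387, for Hspa1b. Without GMP KO 1 the difference of Hspa1a was 3.47 (edgeR adjusted p = 0.0297), which passes. LSK differ from GMP also in the library kit and in Xist, at 155 to 336 CPM in LSK and at most 6.40 in GMP, and these cannot be told apart from the population.

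Between LSK and CFU-E 0 of 9 were called (background 0.0425%), also with DESeq2, and 1 of 9, Hsp90aa1, had an unadjusted p under 0.05 (0.50 ± 0.22 on the log2 scale, SE; background 7.4%). Between CFU-E and GMP 0 of 9 were called (background 0.445%), also with DESeq2, and 2 of 9, Hspa1b (2.0004 ± 0.8950) and Hspe1 (0.71 ± 0.34), had an unadjusted p under 0.05 (log2, SE; background 13.6%). The difference of Hspa1b was 0.60 without CFU-E KO 1 and 3.19 without CFU-E WT 3. Hspa1a, too rare to be tested within CFU-E, is among the 9 in both comparisons. It passed the filter there through the other population. Its difference was 0.46 ± 0.80 for LSK minus CFU-E and 1.11 ± 1.29 for CFU-E minus GMP (log2, SE). These comparisons share libraries with each other and with the comparisons within populations.

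The rest of the pathway was read from 10 lists with 124 genes, of which 122 were in the table. In LSK, 85 of 120 tested genes of these lists were positive and none was called; the median was 0.08 on the log2 scale. The 24 cochaperones of HSP70 and HSP90, which load clients or steer them to degradation, were positive in 20 with a median of 0.12. Heat shock factor genes stood near 0 in LSK (Hsf1 0.02 ± 0.13, Hsf2 0.09 ± 0.25; log2, SE). In GMP, 69 of 105 were negative, none was called, and the median was -0.13; the cochaperones were negative in 19 of 24. In CFU-E, 53 of 106 were negative and 2 fell (background 0.708% of genes fell).

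The 2 genes that fell in CFU-E KO were both immediate early genes, which are switched on within minutes of a stimulus. Jun was at 27.09, 27.43 and 25.16 CPM in CFU-E WT and at 11.82, 7.100, 10.93 and 8.780 CPM in KO, a log2 fold change of -1.36 ± 0.23 (SE, edgeR adjusted p = 0.0109). Jund was at 40.52, 57.01 and 50.32 CPM in WT and at 23.04, 23.92, 14.85 and 14.63 CPM in KO, a log2 fold change of -1.30 ± 0.23 (SE, edgeR adjusted p = 0.0135). For both genes all KO libraries lay below all WT libraries, on both flow cells, and none of the 8 tested chaperones was called in this comparison. Egr1, another gene of the list, differed by -1.56 ± 0.54 (SE, edgeR adjusted p = 0.277). The list did not fall as a whole: of its 10 tested genes 5 were positive and 5 negative. Their median was -0.003 and the highest value 0.68 on the log2 scale.

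In the other populations the genes of these lists with the smallest p did not pass. In LSK they were Hspa2, an HSP70 best known from the testis (-0.77 ± 0.16, edgeR adjusted p = 0.194, all KO libraries lower), Jun (0.58 ± 0.25) and Egr1 (0.93 ± 0.40; log2, SE). In GMP they were Ern1, the IRE1 sensor of unfolded proteins in the endoplasmic reticulum (ER), at 0.94 ± 0.24 (edgeR adjusted p = 0.0625, all KO libraries higher), and 2 ER genes that were lower in all KO libraries, Creld2 (-0.82 ± 0.25) and the ER HSP110 Hyou1 (-0.75 ± 0.23; log2, SE).

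Between the WT populations that share a kit, the chaperones differed strongly. Against GMP WT, CFU-E WT had more of the mitochondrial pair, of Hsph1, of Hsp90aa1, of Hspa8 and of Dnajb1, and less of the stress-induced HSP70 pair. Of the 9 genes 6 rose and 2 fell at an adjusted p under 0.05 (background 46.9% of 10329 genes called, 21.9% rose and 25% fell), so that a call in itself is common here. The 2 that fell passed the filter through GMP WT, the population where they were higher. No library of 1 population overlapped the other for any of the 9, 7 being higher in CFU-E (background 30%) and 2 lower (background 29.8%). The values below are on a scale common to both populations, and in the fit CFU-E WT 3, the only library on flow cell B, sets only the flow cell term.

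Hsph1 was at 83.77, 53.20 and 46.68 CPM in GMP WT and at 391.0, 235.9 and 275.4 CPM in CFU-E WT. The populations did not come near each other, and Hsph1 had the largest rise of the 9, 2.35 ± 0.28 on the log2 scale (SE, edgeR adjusted p = 1.66e-07). Dnajb1 rose by 0.90 ± 0.24 (SE, edgeR adjusted p = 0.00390), from 81.68 to 113.4 CPM in GMP to 164.8 to 212.1 CPM in CFU-E; without CFU-E WT 2 it was 0.71 and did not pass (edgeR adjusted p = 0.112).

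Hspd1 was at 181.9, 136.7 and 119.4 CPM in GMP WT and at 570.4, 434.7 and 467.8 CPM in CFU-E WT, a rise of 1.78 ± 0.25 (log2, SE, edgeR adjusted p = 2.01e-06). Its partner Hspe1 was at 43.72, 51.61 and 45.82 CPM against 157.2, 121.8 and 133.8 CPM, a rise of 1.57 ± 0.24 (log2, SE, edgeR adjusted p = 8.67e-06). The fitted rise was 3.44-fold for the barrel and 2.97-fold for the lid, and their difference was not tested. Hspa8 was at 348.4, 405.2 and 353.7 CPM against 760.4, 757.2 and 747.5 CPM, a rise of 1.04 ± 0.23 (log2, SE, edgeR adjusted p = 6.70e-04).

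The 2 HSP90 genes differed in size of change. Hsp90aa1 was at 570.9, 301.0 and 239.1 CPM in GMP WT and at 1172, 877.2 and 1149 CPM in CFU-E WT, a rise of 1.47 ± 0.30 (log2, SE, edgeR adjusted p = 2.31e-04). Hsp90ab1 was at 9665, 7803 and 9417 CPM against 12660, 13780 and 13300 CPM. All CFU-E libraries were higher, yet the change of 0.56 ± 0.28 (log2, SE) did not pass with edgeR (adjusted p = 0.0999) and passed with DESeq2 (adjusted p = 0.0469). The difference between the 2 genes was not tested.

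Hspa1a was at 6.021, 12.10 and 9.451 CPM in GMP WT and at 0.9751, 1.529 and 1.374 CPM in CFU-E WT, a fall of -2.82 ± 0.52 on the log2 scale (SE, edgeR adjusted p = 8.44e-05) over 94 and 20 reads in all. Hspa1b was at 4.974, 11.47 and 10.31 CPM against 1.560, 1.699 and 3.207 CPM, a fall of -2.42 ± 0.51 (log2, SE, edgeR adjusted p = 3.66e-04). In CFU-E WT 1 to 3 Hspa1a had 5, 9 and 6 reads and Hspa1b 8, 10 and 14. Both genes therefore passed the filter through GMP WT, where they were higher. The 2 copies with nearly the same promoter both fell, while Hsph1 and Dnajb1, also known targets of HSF1, rose.

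**Figure D3:**
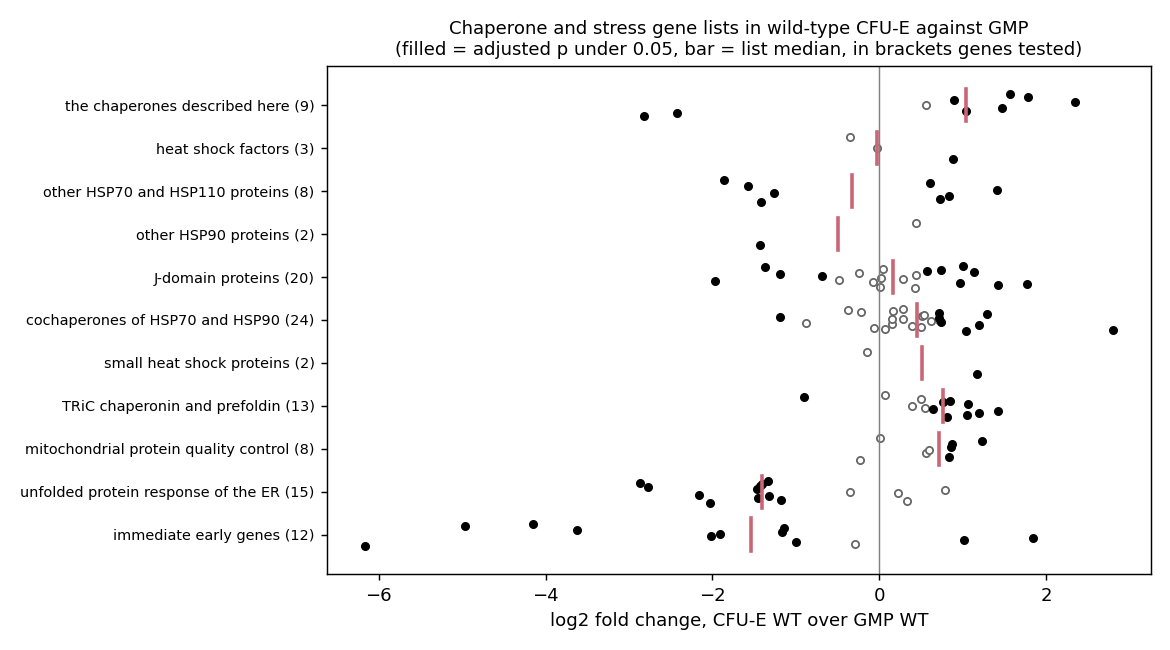
Log2 fold change of CFU-E WT over GMP WT (x axis) for the 9 chaperones and the 10 other lists; each point is a gene (filled where edgeR's adjusted p was under 0.05), each red bar the median of its list. The 9 chaperones have a median of 1.04 with Hspa1a and Hspa1b far to the left, and the lists of the unfolded protein response and of immediate early genes lie mostly left of 0.

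The other lists differed in direction in this comparison, in which 21.9% of all genes tested rose and 25% fell. Of 13 tested subunits of the cytosolic chaperonin TRiC and prefoldin, which fold actin and tubulin, 8 rose and 1 fell (median 0.76), and of 8 genes of mitochondrial protein quality control 4 rose and none fell (median 0.71). Of 24 cochaperones 7 rose, a share near that of all genes, and 1 fell (median 0.45). Bag2, which holds back the ubiquitin ligase of HSP70, had the smallest p, with 44.0 ± 14.9 CPM in CFU-E against 7.50 ± 2.996 in GMP (SD, n = 3 each), a rise of 2.80 ± 0.33 (log2, SE, edgeR adjusted p = 1.55e-07). Of 15 genes of the unfolded protein response of the ER none rose and 11 fell (median -1.41), among them Ern1 (-2.87 ± 0.36) and Sdf2l1, an ER chaperone partner (-2.78 ± 0.31; log2, SE). Over all 10329 genes tested the median was 0.02.

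The counterparts of the 9 chaperones in other compartments are named here after their values were seen. The mitochondrial HSP70 gene Hspa9 rose by 1.41 ± 0.23, while the ER HSP70 gene Hspa5 fell (-1.26 ± 0.28) and the ER HSP90 gene Hsp90b1 fell (-1.43 ± 0.29; log2, SE). The edgeR adjusted p was 1.79e-05 for Hspa9, 7.28e-04 for Hspa5 and 2.86e-04 for Hsp90b1. The list of other HSP90 proteins held 2 genes, and its gene besides Hsp90b1 changed by 0.45 (log2) and was not called. Not every counterpart therefore passed. Of 12 tested immediate early genes 9 fell and 2 rose (median -1.53). Zfp36, which destabilises cytokine mRNA, stood at 93.8 ± 5.86 CPM in GMP WT and 7.02 ± 1.45 in CFU-E WT (SD, n = 3 each). Klf6 stood at 99.2 ± 34.5 and 6.98 ± 2.49 CPM, and Klf2 at 12.3 ± 0.986 and 0.252 ± 0.301 CPM (SD, n = 3 each). All 3 fell, with edgeR adjusted p of 6.07e-10, 8.81e-10 and 2.57e-07. Klf2 passed the filter only through GMP WT.

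How the chaperones varied together was described over the 21 libraries, with log2 CPM centred on the mean of each population so that population differences drop out. Libraries share depth, preparation and genotype within a group, so r is given as a description of likeness only. Over all 21 libraries Hspa1a and Hspa1b were the most alike pair (r = 0.85; within LSK 0.93, within GMP 0.91, within CFU-E 0.69). Within single populations other pairs were higher: Hsp90ab1 with Hsph1 in LSK (0.94), Hspa1b with Hspa8 in GMP (0.95) and Hspa8 with Hsp90aa1 in CFU-E (0.79). Hspa8 was nearest to the mean of the other 8 (r = 0.79), then Hspa1b (0.72) and Hspa1a (0.61). Genes were not scaled to equal spread in these means. Hspa1a and Hspa1b, rare in GMP and CFU-E, vary most and so weigh most in them. Hsp90ab1 (r = 0.08) and Hspd1 (r = -0.29) were the least like the others over all libraries, although within LSK they had r = 0.62 and 0.46, above the 0.34 of Hspa8 there. Hspd1 and Hspe1, despite their shared promoter region, had r = -0.38 (-0.13 in LSK, -0.57 in GMP, 0.59 in CFU-E). GMP KO 4 held the largest deviation of each gene, 0.82 for Hspd1 and -0.95 for Hspe1, in opposite directions. The value of r without that library was not computed.

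**Figure D4:**
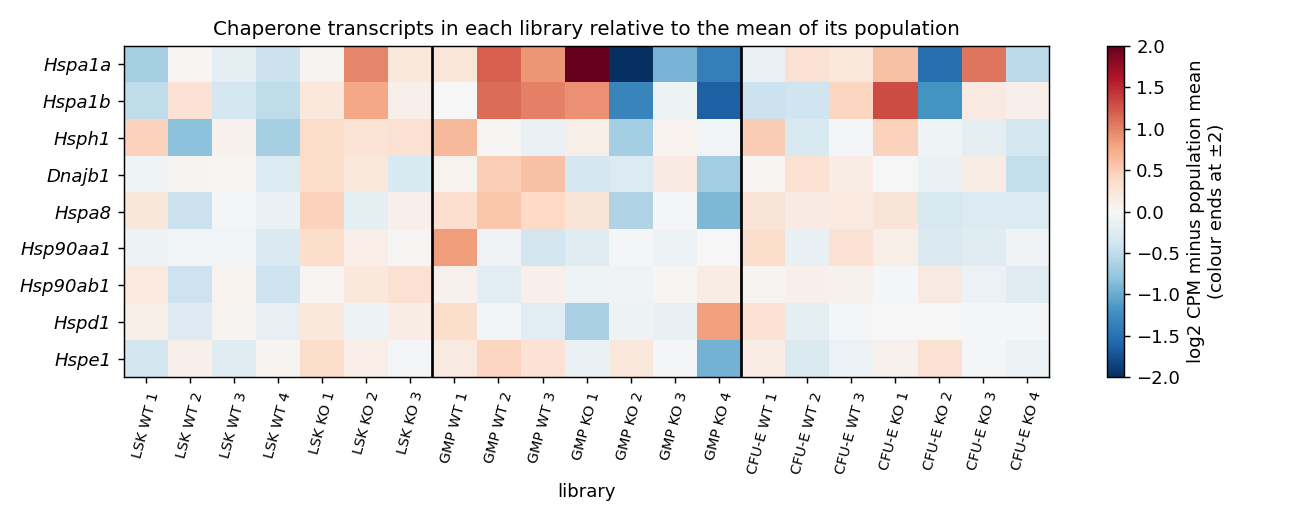
Log2 CPM of each chaperone in every library minus the mean of its population (colour, red higher and blue lower, ending at ± 2). Rows Hspa1a and Hspa1b vary most, and GMP KO 2 and KO 4 are blue for both while GMP KO 1 is red.

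Outside the chaperones, 10 named genes were most like their mean centred level, of 7519 genes with at least 5 CPM on average in each population. Hspa1a and Hspa1b weigh most in this mean as well. The naming passed over 2 genes with predicted-gene or Rik symbols, 1 of them ahead of Ranbp10. Ranbp10 led with r = 0.77, followed by Dnaja1 (0.73), a J-domain partner of HSP70, and by Rnf8 (0.73), Cnnm2 (0.72), Ddx51 (0.72), Ankrd9 (0.72), Esyt2 (0.71), Tmem129 (0.71), Mms22l (0.71) and Pcyox1l (0.71), over 21 libraries each. The likeness of Ranbp10 was 0.98 within GMP, 0.79 within CFU-E and 0.30 within LSK.

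In LSK the stress-induced pair and Jun had nearly the same order over libraries. The summed level of Hspa1a and Hspa1b was highest in KO 2 (1726 CPM), then WT 2 (1097), KO 1 (1067) and KO 3 (1053), and lowest in WT 3 (784.7), WT 4 (686.0) and WT 1 (646.8). Jun was highest in KO 2 (2203 CPM), then WT 2 (1717), KO 3 (1633) and KO 1 (1546), and lowest in WT 3 (1161), WT 1 (1069) and WT 4 (837.5). The same 4 libraries were the highest for both, and this comparison was chosen after the values were seen. Of the other immediate early genes named here, Klf6 had the same 4 highest, but Jund, Zfp36, Klf2 and Egr1 did not. LSK KO 1 was the lowest LSK library for Jund (140.5 CPM), Zfp36 (218.2 CPM) and Klf2 (6.944 CPM).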

How the data were processed

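The deposited values are whole-number read counts per gene for all 21 libraries, with no normalization by the authors. STAR 2.4, HTSeq 0.6.1, DESeq2 and the build mm9 are named per the submitters' processing notes. The sources used here do not give the annotation or strand setting, which leaves overlapping and antisense genes uncertain. Of 30733 genes, 82 had no count.

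Groups came from the labels. No 2 libraries of a group agreed within sampling noise (chi-square per degree of freedom at least 4.03 over 27 pairs). Genes were kept by filterByExpr (minimum count 10, minimum total 15), scaled by TMM and tested with edgeR 4.0.16 (quasi-likelihood, R 4.3.3). A call is a Benjamini-Hochberg adjusted p under 0.05 over all genes tested. A flow cell term was added (from the descriptions) where CFU-E took part. The SE was derived from the F statistic. Levels in LSK stand apart because of their kit. Likeness used log2 CPM with a prior count of 2.

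The chaperones and lists were chosen with earlier results of these data known. Named are the 9 chaperones, list genes past the threshold in a KO comparison, up to 3 list genes per KO comparison and 6 in the WT comparison with the smallest p, and the 10 most alike genes, passing over predicted-gene and Rik symbols. Alternatives were DESeq2 1.42.0, RLE factors, no filter, a filter of 5 CPM, left-out libraries, a replicate block, thinning and single flow cells. The tests were checked on simulated counts.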

Additional observations from a re-analysis of the deposited data

Results flagged for a closer look

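In groups of 4 libraries, a library was singled out where its gap to the nearest other exceeded Dixon's 95% critical value as a share of the group's range. Of 36 such checks on the chaperones' levels and count ratios 4 did so, and chance flags about 1 in 20 groups. Hspa1b in LSK WT 2 stood at 747.5 CPM against 428.6 to 477.9 in the other WT libraries. Hspa1a in GMP KO 1, the shallowest library, stood at 20.81 CPM against 0.5624 to 2.036 in the other KO libraries. Hspa8 in CFU-E KO 1, the only KO library on its flow cell, stood at 925.6 CPM against 615.5 to 635.9. The ratio of Hspd1 to Hspe1 counts in GMP KO 4 was 12.87.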

How the results depend on the processing

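Over 936 alternative values of single chaperones, 880 kept their direction and side of the threshold, 50 changed sign, 5 came to pass the threshold and 1 ceased to pass it. Hspa1a in CFU-E had no reported value and is not among them. The count of chaperones called was 0 under every alternative run in LSK and CFU-E, for LSK minus CFU-E and for CFU-E minus GMP, and 7 to 9 in the WT comparison. In GMP it was 0 to 1 with 1 library left out, 1 without GMP KO 1 and KO 4 together, and 0 otherwise. For LSK minus GMP it was 0 to 1 with 1 library left out. Over all genes, calls under the alternatives ran from 0 to 342 in LSK (14 as reported), 38 to 601 in GMP (145), 22 to 333 in CFU-E (108), 0 to 62 for LSK minus GMP (0), 1 to 90 for LSK minus CFU-E (7) and 2 to 254 for CFU-E minus GMP (49); the cause was not tested.

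The cause of the sign changes was not tested. In GMP, leaving out 1 library gave -0.55 to 0.12 for Hsp90aa1, -0.087 to 0.059 for Hsp90ab1 and -0.30 to 0.22 for Hspd1; Hsp90ab1 was -0.014 with no filter, and Hspd1 was -0.16 without KO 1 and KO 4. In CFU-E the same ranges were -0.74 to 1.92 for Hspa1b, -0.50 to 0.050 for Hspa8, -0.49 to 0.0027 for Hsp90aa1, -0.18 to 0.30 for Hsph1 and -0.12 to 0.058 for Hspd1. Hsph1 was -0.11 with no flow cell term; flow cell A alone gave 0.038 for Hspa8, and flow cell B alone gave -0.73 for Hspa1b, -0.18 for Hsph1 and 0.0036 for Hspd1. For LSK minus GMP the range of Hspd1 was -0.0036 to 0.53. For LSK minus CFU-E it was -1.30 to 1.28 for Hspa1b and -0.090 to 0.13 for Hspe1. For CFU-E minus GMP it was -0.28 to 0.37 for Hsp90aa1, -0.20 to 0.043 for Hsp90ab1 and -0.16 to 0.34 for Hspd1, which was -0.031 with DESeq2, -0.033 with RLE factors and -0.068 with a filter of 5 CPM.

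Equal replicate numbers were not shown to pair libraries, although low correlations cannot exclude pairing. The correlation of their deviations was 0.11, 0.072 and 0.0032 for LSK, -0.16, 0.16 and 0.24 for GMP, and 0.18, 0.25 and -0.18 for CFU-E. A replicate block called 0 chaperones in each population and, over all genes, 325 in GMP, 31 in CFU-E and 0 in LSK. With the block, Hsp90ab1 was -0.033 and Hspd1 -0.31 in GMP, and Hsph1 was -0.10 in CFU-E. Number 1 in LSK, 3 in GMP, and 1 and 2 in CFU-E correlated best with the same number, and the others did not.

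Depth limits the HSP70 pair in GMP and CFU-E, where Hspa1a had 1 to 38 reads per library.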

Other observations

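The mean centred level of the 9 chaperones had the same order over the KO libraries of GMP and of CFU-E: highest in KO 1 (0.21 and 0.31 on the log2 scale), then KO 3 (-0.12 and 0.06), KO 4 (-0.51 and -0.22) and KO 2 (-0.55 and -0.34). The rare Hspa1a and Hspa1b spanned the widest ranges of the genes in this mean. Over the KO libraries Hspa1a ran from -2.11 to 2.08 in GMP and from -1.51 to 1.07 in CFU-E. Hspa1b ran from -1.63 to 0.92 and from -1.19 to 1.31. No single gene of the 9 had the order of the mean in both populations. The labels do not say that libraries with equal numbers came from the same animal. The order was noticed after the values were seen. Bag2, the cochaperone with the smallest p in the WT comparison, was uneven within CFU-E: it was at 68.80, 54.28 and 32.73 CPM in WT and at 90.72, 24.29, 77.35 and 97.64 CPM in KO, with KO 2 below all others.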
